A study of Mus musculus with 16 samples.

Results

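The genes described here are 10 genes of thermogenic and beige fat: Ucp1, Cidea, Ppargc1a, Ppargc1b, Dio2, Prdm16, Ckb, Gatm, Slc6a8 and Kcnk3. Their 32 rows, out of 130343 in the expression table, were found by matching RefSeq identifiers to gene symbols, and the rows of a gene were summed, giving 10 of 35552 symbols. RNA was sequenced from 8 male C57BL/6J mice, an inbred strain with no transgene. The 4 lean mice ate a normal laboratory diet, and the 4 obese mice ate a Western diet with 42% of its energy from fat and 0.2% cholesterol, in both cases for 12 to 14 months from 10 weeks of age. Each mouse gave 1 library of inguinal subcutaneous adipose tissue (SAT, left and right depots together, with visible vessels removed) and 1 of mesenteric visceral adipose tissue (VAT), so 16 libraries form 4 groups of 4.

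Brown and beige adipocytes burn fuel to make heat. In the textbook pathway, noradrenaline from sympathetic nerves acts on β-adrenergic receptors and raises cyclic AMP, which drives lipolysis and, through Ppargc1a and Prdm16, transcription of Ucp1, a mitochondrial carrier that lets protons return to the matrix without making ATP. Heat can also be made without Ucp1, for example by a cycle in which creatine is phosphorylated and dephosphorylated. Inguinal fat of mice is a classic site of beige adipocytes, whereas mesenteric fat is poor in them.

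Promoter windows are shown for 3 genes that passed a test between diets and whose window was in the sequence table, since cyclic AMP and nuclear receptors are known to act at such sites. Each window is the 250 bases before the annotated start in RefSeq, build GRCm38.p6, written 5′ to 3′ on the strand of the gene, at chr8:83290098-83290347 on the plus strand for Ucp1, chr12:90739039-90739288 on the minus strand for Dio2 and chr2:122611278-122611527 on the minus strand for Gatm. Capitals mark matches on either strand to the cyclic AMP response element (letters TGACGTCA), to its core (letters TGACG, which the full element holds on both strands), to the nuclear receptor hexamer (letters AGGTCA), to the TATA box (letters TATAAA) or to the CCAAT box.
Ucp1: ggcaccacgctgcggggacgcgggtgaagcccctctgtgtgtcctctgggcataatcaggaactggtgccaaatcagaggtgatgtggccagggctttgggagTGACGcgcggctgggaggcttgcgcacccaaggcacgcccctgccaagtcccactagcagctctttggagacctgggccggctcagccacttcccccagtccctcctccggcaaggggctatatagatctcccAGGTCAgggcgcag
Dio2: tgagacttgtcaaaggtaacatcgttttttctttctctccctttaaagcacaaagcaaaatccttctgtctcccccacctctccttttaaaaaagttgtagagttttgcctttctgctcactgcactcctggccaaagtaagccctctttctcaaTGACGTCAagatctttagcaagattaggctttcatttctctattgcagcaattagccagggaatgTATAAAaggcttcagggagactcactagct
Gatm: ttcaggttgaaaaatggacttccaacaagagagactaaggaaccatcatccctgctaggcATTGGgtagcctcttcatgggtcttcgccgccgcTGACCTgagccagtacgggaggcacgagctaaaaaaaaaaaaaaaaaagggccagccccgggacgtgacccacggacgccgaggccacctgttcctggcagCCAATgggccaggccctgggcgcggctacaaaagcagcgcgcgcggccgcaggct

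The Ucp1 window holds the core of the cyclic AMP element 147 to 143 bases before the start and the nuclear receptor hexamer 14 to 9 bases before it. The Dio2 window holds the full cyclic AMP element 95 to 88 bases before the start and a TATA box 30 to 25 bases before it. The Gatm window holds the nuclear receptor hexamer on the opposite strand, 156 to 151 bases before the start, and a CCAAT box on each strand. Among 32851 windows of the same length, the full cyclic AMP element was in 1.55%, its core in 17.8%, the nuclear receptor hexamer in 14.0%, the TATA box in 12.4% and the CCAAT box in 33.8%. A match is a description of letters and not evidence of binding.

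Total counts lay between 4604460 and 11897722 in SAT of lean mice, 10828758 and 16614407 in SAT of obese mice, 1256082 and 15802634 in VAT of lean mice and 2247737 and 11615347 in VAT of obese mice. The VAT libraries of lean mouse 1 and obese mouse 1 were the shallowest. Levels are given as CPM, the counts scaled to a common library total, after correction by TMM factors (TMM-scaled CPM). A gene is called here if edgeR's quasi-likelihood test gave it an adjusted p below 0.05, by the method of Benjamini and Hochberg over the 12186 genes whose CPM exceeded 1 in 3 or more libraries. In these bulk tissues, fewer cells of a type and less RNA per cell cannot be told apart.

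Adipocyte genes were high in every group, whereas skeletal muscle genes were low. Adipoq, the gene of adiponectin, lay between 2693 and 7216 TMM-scaled CPM over the 16 libraries. The summed level of 12 skeletal muscle genes lay between 1.62 and 8.52, and muscle creatine kinase (Ckm) did not exceed 1.14 TMM-scaled CPM. Markers of several cell types moved with diet. The summed level of 10 macrophage genes was 1379 to 1895 in SAT of lean mice, 2168 to 3139 in SAT of obese mice, 2340 to 3058 in VAT of lean mice and 4840 to 8149 in VAT of obese mice, with 4 of the 9 tested genes higher in obese SAT, 8 of 9 higher in obese VAT, and none of the list at 0. The summed level of 9 white adipocyte genes was 88597 to 118120 in lean SAT, 52406 to 75519 in obese SAT, 60971 to 93029 in lean VAT and 28350 to 47309 in obese VAT, with 2 of 9 lower in obese SAT and 5 of 9 lower in obese VAT, and none at 0. Car3 made up a large part of these sums. Its mean was 48213 in lean and 18788 in obese SAT, and 47110 in lean and 17431 in obese VAT. The 2 genes lower in obese SAT were Car3 and Cfd. The summed level of 7 B and T cell genes was 7.04 to 9.64 in lean SAT, 6.68 to 14.04 in obese SAT, 37.8 to 238 in lean VAT and 193 to 335 in obese VAT, with 0 of 6 tested genes called by edgeR in SAT (1 at an unadjusted p below 0.05), 3 of 6 higher in obese VAT and none at 0. Single genes of 3 further lists were called as well: 1 of 3 nerve and Schwann cell genes and 1 of 3 exocrine pancreas genes were higher in obese mice in each tissue, and 1 of 5 intestinal epithelium genes was lower in obese VAT. The median log2 fold change of the tested pancreas genes was 0.80 in SAT but -0.59 in VAT, against the direction of the called gene. For the nerve genes it was 0.27 in SAT and 0.31 in VAT. The part of these shifts in the results below was not tested.

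Of the 10 genes, 6 passed the filter, and each of these has 1 row in the table. They are Ucp1 (NM_009463, chr8:84016647-84025085), Dio2 (NM_010050, chr12:90691322-90705819), Ckb (NM_021273, chr12:111635789-111639008), Gatm (NM_025961, chr2:122424948-122441799), Kcnk3 (NM_010608, chr5:30745243-30783689), with gene positions in GRCm39, and Cidea (NM_007702). Their counts over the 16 libraries were 538 for Ucp1, 1229 for Dio2, 4218 for Cidea, 4561 for Gatm, 6775 for Ckb and 14375 for Kcnk3.

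The other 4 genes have several rows each and almost no counts. Ppargc1a, the coactivator that drives mitochondrial biogenesis, had 55 counts over its 11 rows, with 0 to 12 in any library. Slc6a8, the creatine transporter, had 9 counts over 3 rows. Ppargc1b, a coactivator related to Ppargc1a, had 8 counts over 3 rows. Prdm16, the transcriptional regulator of brown and beige identity, had 0 counts in its 9 rows in every library. These 4 were not tested. Among protein-coding genes in the table, the 8139 with 1 row held 86.8% of the counts, and the 5743 with 5 or more rows held 1.46%. Low counts of a gene with several rows are therefore not read here as low expression, and how reads shared between transcripts were counted is not given in the sources used here.

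**Figure D1:**
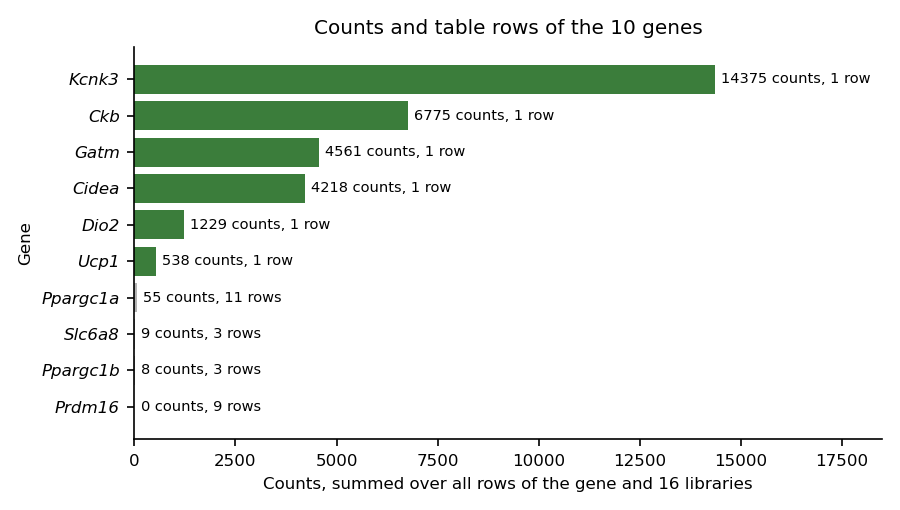
Counts of each of the 10 genes, summed over all of its rows and the 16 libraries (bars, linear axis from 0), with the number of rows printed beside each bar. The 6 genes with 1 row (green) hold 538 to 14375 counts and the 4 with several rows hold 0 to 55.

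Ucp1 was higher and Cidea and Dio2 were lower in both tissues of obese mice, and Gatm was higher in VAT. In SAT 3 of the 6 tested genes were called, 1 higher and 2 lower in obese mice, against 11.6% of all genes tested (6.35% higher and 5.25% lower). In VAT 4 of 6 were called, 2 higher and 2 lower, against 12.2% of all genes tested (6.88% higher and 5.28% lower). Tested as single rows, 3 were called in each tissue, against 11% and 10.9% of all rows tested. The median log2 fold change of the 6 was -0.31 in SAT and -0.16 in VAT, and that of all genes tested was 0 in SAT and -0.02 in VAT. Libraries of obese and lean mice did not overlap for 3 of the 6 genes in SAT and 3 in VAT, against 17.3% and 14.2% of all genes tested.

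Ucp1, the uncoupling protein, was barely counted in lean mice and rose in both tissues of obese mice. In SAT of lean mice the 4 libraries held 5, 0, 1 and 1 counts, or 0.416, 0, 0.0956 and 0.213 TMM-scaled CPM. In SAT of obese mice they held 21, 16, 75 and 23 counts, or 1.60, 1.70, 5.14 and 1.78 TMM-scaled CPM. Every obese library was above every lean library, and obese mouse 3 stood above the other 3. The means were 0.181 ± 0.179 and 2.55 ± 1.72 TMM-scaled CPM (SD, n = 4), a log2 fold change of 3.61 (SE 0.63, edgeR adjusted p = 0.000556).

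In VAT of lean mice Ucp1 had 0, 5, 3 and 8 counts, or 0, 0.298, 0.323 and 0.877 TMM-scaled CPM. The count of 0 in the shallow library of lean mouse 1 allows up to 2.39 CPM. In VAT of obese mice it had 25, 118, 161 and 76 counts, or 9.51, 9.51, 15.02 and 6.30 TMM-scaled CPM. Again all obese libraries were above all lean libraries. The means were 0.375 ± 0.366 and 10.1 ± 3.62 (SD, n = 4), a log2 fold change of 4.48 (SE 0.52, edgeR adjusted p = 6.42e-06). Against so few lean counts the size of the fold is imprecise: it was 4.68 in SAT without lean mouse 1, 3.00 in SAT without obese mouse 3 and 5.10 in VAT without lean mouse 4, and the call held in each case. In the same comparisons 4 of 9 tested macrophage genes rose in SAT and 8 of 9 in VAT (Cd68 by 1.43 and 2.32 on the log2 scale), as did 3 of 6 tested B and T cell genes in VAT, and their part in the Ucp1 result was not tested.

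Cidea, a lipid droplet protein enriched in brown fat, moved the other way. Its levels in SAT of lean mice were 18.4, 46.9, 66.4 and 24.7 TMM-scaled CPM, and in SAT of obese mice 10.1, 14.6, 13.1 and 14.7. Every obese library was below every lean library, and the lean mice differed widely among themselves. The log2 fold change was -1.58 (SE 0.30, edgeR adjusted p = 0.00122). In VAT the lean levels were 25.3, 28.05, 49.3 and 49.03 and the obese levels 15.6, 22.8, 18.9 and 21.7, again without overlap. The fall in VAT was smaller, -0.95 on the log2 scale (SE 0.30, edgeR adjusted p = 0.0403). That call rested on few mice: it was lost without lean mouse 3 (adjusted p = 0.0895), lean mouse 4 (0.128) or any of the 4 obese mice (0.0808 to 0.116), with limma voom (0.0628) and when rows were tested in place of genes (0.0518).

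Dio2, the deiodinase that turns thyroxine into active thyroid hormone inside the cell and is itself a cyclic AMP target in brown fat, fell most steeply. In SAT of lean mice it lay at 11.3, 6.32, 25.0 and 22.4 TMM-scaled CPM, and in SAT of obese mice at 1.52, 2.23, 1.71 and 1.47. The groups did not overlap, and the 4 obese libraries were close together. The means were 16.3 ± 8.91 and 1.73 ± 0.344 (SD, n = 4), a log2 fold change of -3.23 (SE 0.52, edgeR adjusted p = 0.000274). In VAT the lean levels were 24.0, 3.57, 24.0 and 19.5, and the obese levels 1.90, 2.34, 0.933 and 4.56. Here lean mouse 2, the lowest of the lean mice in both tissues, fell below obese mouse 4. The log2 fold change in VAT was -2.72 (SE 0.53, edgeR adjusted p = 0.00149). Of the 9 white adipocyte markers, 2 also fell in SAT and 5 in VAT, with a median log2 fold change over the 9 of -0.19 and -0.62. Car3 fell by 1.36 in SAT and 1.43 in VAT, whereas Adipoq did not pass in SAT (-0.19) and fell by 0.62 in VAT. The part of these markers in the falls of Cidea and Dio2 was not tested.

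**Figure D2:**
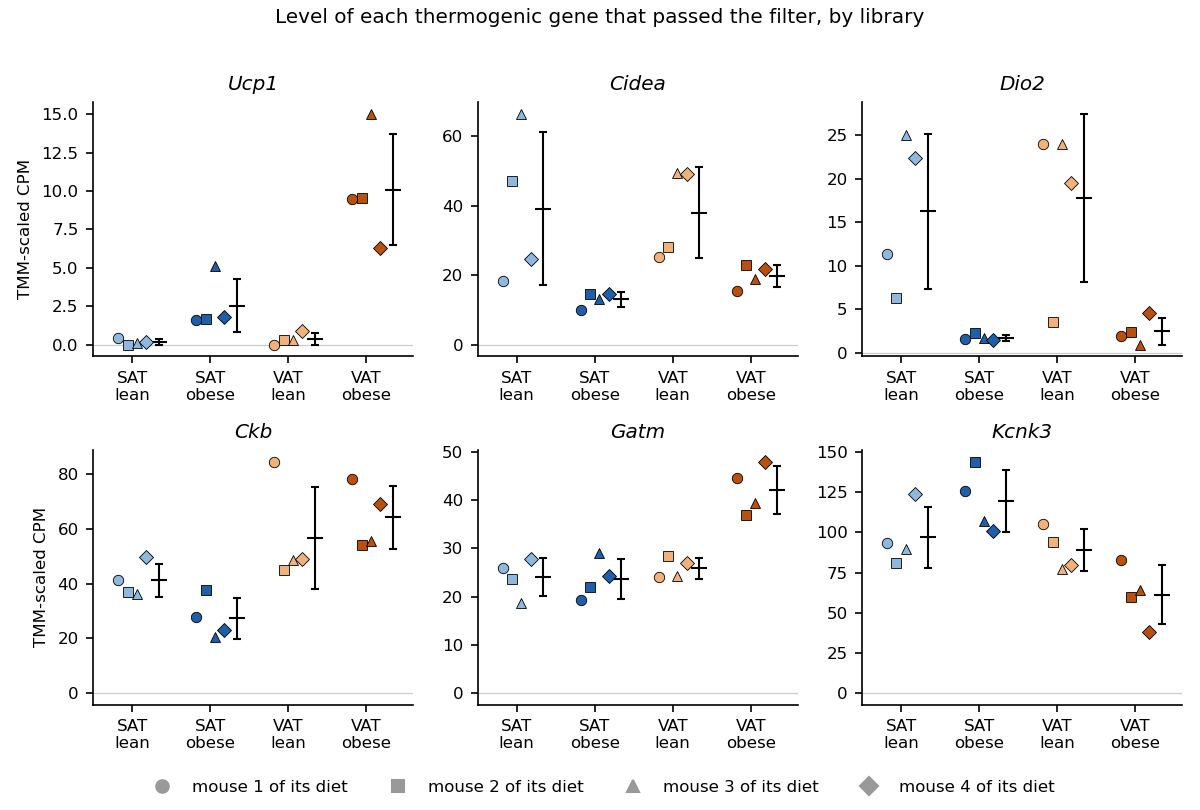
TMM-scaled CPM (linear axis) of the 6 genes that passed the filter in each of the 16 libraries, with marker shape for the mouse and a bar for the mean ± SD of the 4 mice in a group. Ucp1 reached 6.30 to 15.02 in VAT of obese mice and stayed at or below 0.877 in lean mice, whereas Dio2 in obese mice stayed at or below 4.56.

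Of the creatine genes, Gatm passed the test between diets in VAT, and whether its response differed from that of Ckb was not tested. Gatm, the amidinotransferase that begins creatine synthesis, lay between 18.7 and 27.7 TMM-scaled CPM in SAT of lean mice and between 19.3 and 29.0 in SAT of obese mice, a log2 difference of -0.02 with a 95% interval from -0.33 to 0.30 (edgeR adjusted p = 0.966). In VAT it lay at 23.95, 28.4, 24.2 and 26.98 in lean mice and at 44.5, 36.8, 39.5 and 47.9 in obese mice. All obese VAT libraries were above all others. The mean rose from 25.9 ± 2.16 to 42.2 ± 4.98 (SD, n = 4), a log2 fold change of 0.69 (SE 0.15, edgeR adjusted p = 0.00471). In VAT 8 of 9 tested macrophage genes and 3 of 6 B and T cell genes rose too, and their part was not tested.

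Ckb, the creatine kinase of brain and brown fat, did not pass the test between diets in either tissue. Its levels were 41.5, 37.1, 36.3 and 49.7 TMM-scaled CPM in SAT of lean mice and 27.7, 37.7, 20.5 and 23.1 in SAT of obese mice. Only obese mouse 2 reached into the lean range. The log2 difference was -0.59 (SE 0.20, edgeR adjusted p = 0.0557), just outside the threshold, and it passed under 8 of 11 other settings (lowest adjusted p = 0.0238). With 1 mouse left out it passed in 2 of 8 fits (highest edgeR adjusted p = 0.169). In VAT Ckb lay at 84.5, 45.0, 48.6 and 48.9 in lean mice and 78.4, 54.0, 55.5 and 69.0 in obese mice, a log2 difference of 0.22 with a 95% interval from -0.20 to 0.63. The mouse with the highest Ckb of each diet in VAT, lean mouse 1 and obese mouse 1, was the mouse whose VAT library was the shallowest.

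Kcnk3, an acid-sensitive potassium leak channel known to restrain adrenergic activation of brown adipocytes, did not pass between diets in either tissue. In SAT it lay at 93.3, 80.8, 89.5 and 124 TMM-scaled CPM in lean mice and 126, 144, 107 and 101 in obese mice, a log2 difference of 0.30 with a 95% interval from -0.07 to 0.68 (edgeR adjusted p = 0.303). In VAT it lay at 105, 94.0, 77.2 and 79.5 in lean mice and 82.9, 59.8, 64.2 and 38.1 in obese mice. Obese mouse 1 was the only obese library within the lean range. The log2 difference in VAT was -0.55 (SE 0.19, edgeR adjusted p = 0.0606), and it passed under 5 of 11 other settings (lowest adjusted p = 0.0112), such as without both mouse 1 pairs of libraries, a setting added after the data were seen (0.0442). With 1 mouse left out it passed in 1 of 8 fits (highest edgeR adjusted p = 0.241).

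The responses of the 6 genes in VAT and SAT were then compared within mice. Kcnk3 was called, 1 of 6 genes against 2.47% of all genes tested. Its response in VAT was lower than in SAT by 0.89 on the log2 scale (SE 0.21, edgeR adjusted p = 0.0267). The call was lost without the block for the mouse (adjusted p = 0.118), with library totals only, a setting added after the data were seen (0.0914), and without lean mouse 1, 2 or 3 or obese mouse 2 or 4 (0.0505 to 0.140). For Ckb the response in VAT exceeded that in SAT by 0.84 (SE 0.24, edgeR adjusted p = 0.0695), and for Gatm by 0.70 (SE 0.21, edgeR adjusted p = 0.0876), and these passed under 4 and 2 of 10 other settings. With 1 mouse left out, the Ckb difference passed in 2 of 8 fits and the Gatm difference in 0 of 8. The differences for Cidea (0.59, 95% interval -0.02 to 1.20), Dio2 (0.42, -0.54 to 1.38) and Ucp1 (0.65, -1.37 to 2.67) did not pass, and the last interval is wide because lean mice had so few Ucp1 counts.

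**Figure D3:**
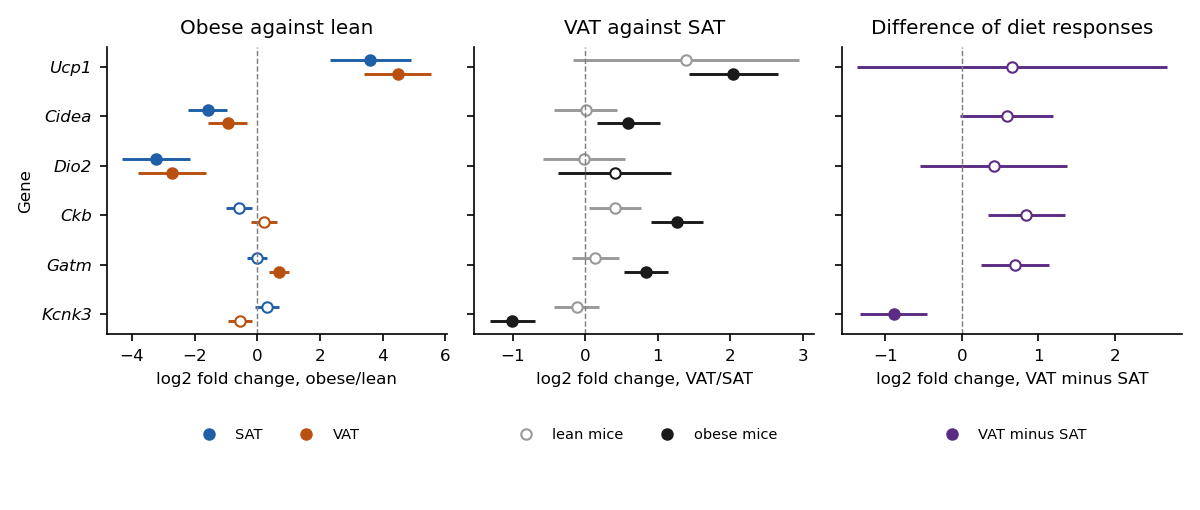
Log2 fold changes with 95% intervals for the 6 tested genes, by diet in each tissue, between tissues in each diet, and for the difference of the diet responses. Filled circles passed an adjusted p of 0.05 in edgeR and open circles did not, so that Ucp1 lies far to the right and Dio2 far to the left in both tissues.

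The tissues themselves were compared in each diet. In lean mice edgeR called 0 of the 6 genes between VAT and SAT, against 15.9% of all genes tested, as did DESeq2 and limma voom, and 1 gene (Ckb) had an unadjusted p below 0.05. In obese mice 5 of 6 were called, 4 higher and 1 lower in VAT, against 31.4% of all genes tested (16.3% higher and 15.1% lower). Ucp1 was higher in VAT of obese mice by 2.04 on the log2 scale (SE 0.29, edgeR adjusted p = 2.05e-05). Ckb was higher by 1.26 (SE 0.17, adjusted p = 1.14e-05), Gatm by 0.84 (SE 0.15, adjusted p = 0.000169) and Cidea by 0.59 (SE 0.21, adjusted p = 0.0353). Kcnk3 was lower by 1.01 (SE 0.15, adjusted p = 2.62e-05). Dio2 did not pass, at 0.40 with a 95% interval from -0.37 to 1.18.

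The same order was seen within each obese mouse. VAT was above SAT in 4 of 4 obese mice for Ucp1, Cidea, Ckb and Gatm, and in 0 of 4 for Kcnk3. In lean mice VAT was above SAT in 3 of 4 for Ucp1 and Ckb, 2 of 4 for Cidea, Gatm and Kcnk3 and 1 of 4 for Dio2. The Cidea difference in obese mice was narrow, 0.52 to 0.62 on a log2 scale with 0.5 CPM added, but its call was lost without any 1 of the obese mice (adjusted p = 0.0592 to 0.0934), with limma voom (0.101), without the block for the mouse (0.129) and without both mice of the shallowest libraries, a setting added after the data were seen (0.0711). The mesothelial markers of VAT, 251 to 607 TMM-scaled CPM in sum in VAT and at most 1.41 in SAT, separate the tissues in both diets. In obese mice 9 of 9 tested macrophage genes and 6 of 6 B and T cell genes were higher in VAT (4 of 9 and 3 of 6 in lean mice), and 5 of 9 white adipocyte genes were lower (2 of 9 in lean mice). The part of these markers in the differences between tissues was not tested.

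**Figure D4:**
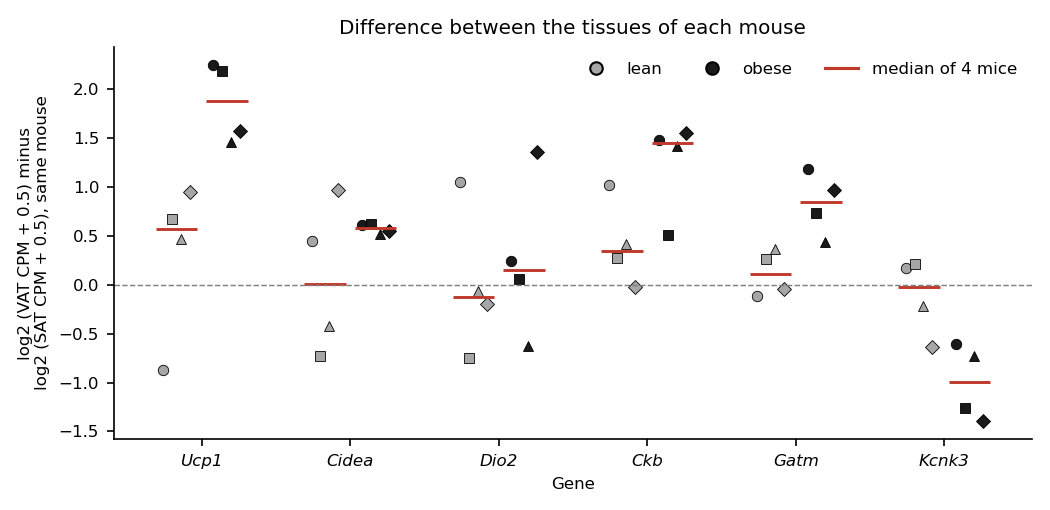
Difference between VAT and SAT of the same mouse in log2 TMM-scaled CPM, with 0.5 CPM added, for each of 4 lean (grey) and 4 obese (black) mice, and the median of each diet (red line). All 4 obese mice lie above 0 for Ucp1, Cidea, Ckb and Gatm and below 0 for Kcnk3, whereas the lean mice lie on both sides for all 6 genes.

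Divided by transcript length (TMM-scaled CPM per kilobase of the canonical GENCODE transcript), the levels of the genes can be ordered. The canonical transcript can differ in length from the RefSeq transcript whose row was counted, which limits the values per kilobase and their order. In SAT of lean mice Cidea (30.9 ± 17.3) and Ckb (27.95 ± 4.16) were highest, followed by Kcnk3 (19.4 ± 3.76), Gatm (9.99 ± 1.62), Dio2 (2.53 ± 1.39) and Ucp1 (0.108 ± 0.107; SD, n = 4 for each). The libraries of Cidea, Ckb and Kcnk3 overlapped in this order, and the measured values of Kcnk3, Gatm, Dio2 and Ucp1 did not. In VAT of obese mice the order was Ckb (43.6 ± 7.87), Gatm (17.5 ± 2.07), Cidea (15.6 ± 2.55), Kcnk3 (12.2 ± 3.68), Ucp1 (6.02 ± 2.16) and Dio2 (0.379 ± 0.239). There Ckb stood apart above and Dio2 below, and the 4 between overlapped with their neighbours. On this scale the mean of Ucp1 was below that of Dio2 in lean mice and above it in obese mice, in both tissues. In obese SAT the undivided means had the same order (2.55 for Ucp1 and 1.73 for Dio2). The undivided levels of the single libraries overlapped there, so that their separation depends on the division by length. In lean VAT the count of 0 in the shallow library of mouse 1 allows a Ucp1 level above that of Dio2 in lean mouse 2. In obese VAT the mean of Ucp1 was still below those of Ckb, Gatm and Cidea per kilobase.

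Other markers of brown and beige adipocytes did not move as a block. Of 27 listed genes, 12 passed the filter, and most of the rest have several rows. In SAT 4 were higher in obese mice and 1 lower, against 6.35% and 5.25% of all genes tested, with a median log2 fold change of 0.46 over the 12, against 0. In VAT 2 were higher and 2 lower, against 6.88% and 5.28%, with a median of 0.41, against -0.02. Adrb3, the β-adrenergic receptor of adipocytes, fell in both tissues, from 59.9 ± 28.9 to 27.3 ± 8.61 TMM-scaled CPM in SAT (log2 fold change -1.14, edgeR adjusted p = 0.00675) and from 182 ± 48.2 to 91.4 ± 14.5 in VAT (-1.003, adjusted p = 0.0119; SD, n = 4). Fgf21, a hormone that can induce browning, rose in SAT from 0.752 ± 0.696 to 2.25 ± 0.941 (1.71, adjusted p = 0.0287). Cpt1b, which imports fatty acids into mitochondria, rose in SAT from 2.11 ± 1.10 to 6.28 ± 1.08 (1.64, adjusted p = 0.00192). The other 2 that rose in SAT were Pdk4 (0.93) and Slc36a2 (0.78), named after their values were seen.

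In VAT, Otop1, which encodes a proton channel, rose from 10.7 ± 5.18 to 34.7 ± 11.6 TMM-scaled CPM (log2 fold change 1.72, edgeR adjusted p = 0.000322). Its response was larger in VAT than in SAT by 1.23 (adjusted p = 0.0123). Epsti1, listed among the brown and beige markers and also an interferon-induced gene, rose in VAT from 20.3 ± 3.68 to 47.5 ± 20.04 (1.28, adjusted p = 0.000558). Ebf2, a transcription factor that marks brown and beige precursors, fell in VAT from 3.68 ± 0.321 to 1.52 ± 0.591 (-1.41, adjusted p = 0.00615). Slc36a2 responded in the opposite order to Otop1, lower in VAT than in SAT by 1.17 (adjusted p = 0.00194). The listed genes Cited1, Zic1, Gk and Bmp8b had 0 counts in all libraries, each with 2 to 8 rows. Of the called genes, Ebf2 has 3 rows, Epsti1 2, and Adrb3 and Slc36a2 4 each. The limit given above for genes with several rows holds for their levels.

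**Figure D5:**
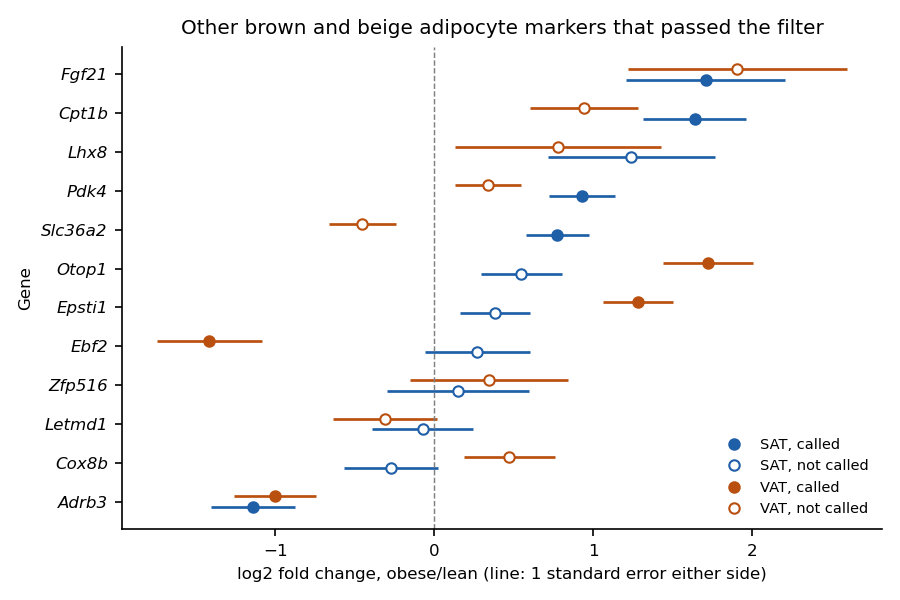
Log2 fold change between obese and lean mice of the 12 other brown and beige markers that passed the filter, in SAT (blue) and VAT (orange), with lines of 1 standard error either side. Filled circles passed an adjusted p of 0.05 in edgeR, so that Adrb3 is filled on the left in both tissues and Otop1 and Epsti1 are filled on the right in VAT.

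The paralogs of the thermogenic genes had patterns of their own. Ucp2, an uncoupling protein paralog known for its expression in immune cells, rose in SAT from 0.998 ± 0.365 to 2.84 ± 0.861 TMM-scaled CPM (log2 fold change 1.497, edgeR adjusted p = 0.0117) and in VAT from 1.95 ± 0.669 to 5.09 ± 1.98 (1.58, adjusted p = 0.00458). Ucp3, best known from muscle and brown fat, fell in VAT by 0.94 (adjusted p = 0.000746), from 167 to 85.8 TMM-scaled CPM, and is named after its values were seen. Cidec, the lipid droplet paralog of Cidea in white adipocytes, did not pass in either tissue (0.09 and -0.65). Of 13 other potassium channels of the Kcnk3 family, 3 were tested: Kcnk6 rose in VAT (1.27, adjusted p = 0.00013) and in SAT (0.95, adjusted p = 0.00203), and Kcnk13 rose in VAT (1.57, adjusted p = 0.0159). The family members Kcnk4, Kcnk9, Kcnk12 and Kcnk15 had 0 counts in all libraries. Ucp2 has 2 rows, Cidec 3 and Kcnk13 4, so the limit for genes with several rows holds for their levels.

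Around the genes, a few members of the hormone, receptor and regulator lists were called. The counts that follow stand against 11.6% of all genes called in SAT and 12.2% in VAT, and several are close to or below these shares, so that nothing is read from them about the lists as such. Of 15 tested genes of the adrenergic and cyclic AMP pathway, 2 fell in SAT, Adrb3 and the kinase subunit Prkar2b (-1.07, adjusted p = 0.00715), and Adrb3 also fell in VAT. Of 4 tested genes of thyroid hormone handling, 2 fell in each tissue: Thrsp, a thyroid hormone-responsive gene of lipid synthesis, by 1.13 in SAT and 1.18 in VAT, and the receptor Thra by 0.61 in SAT and 0.38 in VAT, on the log2 scale. Thra also accounts for the 1 fall in SAT among 7 tested coactivators and transcription factors, and Thra and Nfe2l1 for the 2 falls in VAT. Among 15 tested repressors, Tbk1 rose in SAT, and in VAT Ikbke rose and Ncor1 fell. Of 9 tested genes of calcium and lipid cycling, 2 fell in VAT, Lipe and Dgat1, and edgeR called 0 in SAT (1 at an unadjusted p below 0.05). For the creatine list, 2 of 5 genes (Gamt and Alpl) were tested and edgeR called 0 in SAT (1 at an unadjusted p below 0.05) and 0 in VAT (0 at an unadjusted p below 0.05). Thra, Nfe2l1, Tbk1, Ikbke, Ncor1, Lipe and Dgat1 were named after their values were seen. Irf4, Cebpb, Yy1, Tle3, Ryr1, Ryr2 and Slco1c1, of the same lists, had 0 counts in all libraries. Prkar2b, Thra, Nfe2l1, Ikbke, Ncor1, Lipe and Dgat1 have 3 to 37 rows each, so the limit for genes with several rows holds for them.

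The genes whose levels followed each thermogenic gene most closely were found by Pearson's r of log2 TMM-scaled CPM over the 16 libraries, which share diet, tissue and mouse, so r is a description with no test. For Ucp1 they were I730028E13Rik (0.944), Ctss (0.933) and Atp6v0d2 (0.927). Cidea was followed by Gtf2h3 (0.936), Ntrk3 (0.889) and Gsta4 (0.887), and Dio2 by Lrtm1 (0.878), Timp4 (0.861) and Idh3b (0.859). For Ckb they were Rnf187 (0.945), Rpl8 (0.925) and Rps2 (0.923), for Gatm Gm36161 (0.946), Slamf7 (0.944) and AI662270 (0.936), and for Kcnk3 Tmem179 (0.918) and Igfals (0.910). Among the 6 genes themselves, Cidea and Dio2 had an r of 0.75, Ucp1 and Gatm 0.72, Ucp1 and Dio2 -0.76, and Gatm and Kcnk3 -0.71.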

How the data were processed

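Bulk RNA-seq of 16 adipose libraries (poly(A), directional, paired-end) was used. The authors trimmed reads with Trim Galore 0.6.6, aligned them with HISAT2 2.2.0 to GRCm39 with its RefSeq annotation and counted them with HTSeq 0.13.5. The deposited table of 130343 rows gives raw counts in 16 columns and CPM in 16 more, all used. The deposited CPM values equal the counts divided by the library total (largest difference 4.95e-10), without a TMM factor. The strand setting and the treatment of reads shared by transcripts are not given in the sources used here.

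Symbols were found for 106811 rows (81.9%) and counts were summed per symbol. TMM factors and quasi-likelihood F-tests came from edgeR 4.0.16 (legacy=TRUE) in R 4.3.3, on genes whose CPM exceeded 1 in 3 or more of the 16 libraries, with Benjamini-Hochberg adjustment over all genes tested. All 16 libraries were fitted together, and comparisons between tissues had the mouse as a block. Same-mouse SAT and VAT libraries deviated from their group means with correlations of -0.00145 to 0.175 (median 0.0765, 8 pairs), against a median of -0.0373 for 24 pairs of different mice. Alternatives were RLE size factors, no filter, filterByExpr, DESeq2 1.42.0, legacy=FALSE, limma voom 3.58.1, curated rows only, 1 tissue at a time, a block by replicate number, rows in place of genes, and each mouse left out. The main edgeR fit, DESeq2 and limma voom were run on simulated counts per gene, with the same spread for all genes and no mouse effect. The other alternatives were not run on simulated data. Tables were made with pandas 2.3.3 in Python 3.11.15 and figures with matplotlib 3.10.9.

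A count of 0 limits a level to 3 counts of the library's total. In the shallowest library 1 count equals 0.796 CPM. These limits and all counting errors cover counting only.

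The 10 genes and the lists were chosen with earlier results of these data known. All 10 genes are named. Genes of the other lists are named if called with an absolute log2 fold change above 1 in either tissue, or if at 0 in all libraries, and other exceptions are marked. The 3 genes most correlated with each tested gene are named as well. A few genes that these rules select are not reported here. Promoter windows come from RefSeq (GRCm38.p6) and matched 6 of the 10 genes by symbol (not Cidea, Ppargc1b, Slc6a8 and Kcnk3), and gene positions and transcript lengths from the GENCODE annotation of GRCm39.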

Additional observations from a re-analysis of the deposited data

Results flagged for a closer look

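In SAT of obese mice, the library of mouse 3 held Ucp1 at 5.14 TMM-scaled CPM, far above the other 3 libraries at 1.60 to 1.78. In VAT of lean mice, the library of mouse 1, the shallowest of all, held Ckb at 84.5 TMM-scaled CPM, far above the other 3 at 45.0 to 48.9. A test for a library far from its group was made in 24 groups of 4 libraries and marked these 2, and chance marks about 1 in 20 groups. The response of Kcnk3 to diet passed the test of a difference between tissues, its log2 fold change in VAT being below that in SAT by 0.89 (-0.89, SE 0.21, edgeR adjusted p = 0.0267). This call was lost without the block for the mouse (adjusted p = 0.118), with library totals only (0.0914) and when any 1 of 5 of the 8 mice was left out (0.0505 to 0.140). Within mice, Kcnk3 was lower in VAT than in SAT in all 4 obese mice and in 2 of 4 lean mice.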

How the results depend on the processing

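Between diets, Ucp1 and Dio2 kept direction and call in both tissues, as did Cidea in SAT and Gatm in VAT, under every alternative run and without any mouse. The number of the 6 genes called was 3 or 4 in SAT and 3 to 5 in VAT without a mouse or under another setting, 0 between tissues of lean mice and 4 or 5 between tissues of obese mice. For rows in place of genes it was 3 or 4 in each tissue without a mouse, and 5 in VAT with no filter. The number called for the difference of the responses depended most on the setting: 1 in the main test, 2 with no filter, 3 with DESeq2, 2 with limma voom, 0 without the block for the mouse, 2 with library totals only (added after the data were seen) and 0 to 1 without a mouse. The cause was not tested.

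Several differences that were not called changed sign, and not all of them were near 0 in the main test. For Cidea between tissues of lean mice (0.01 in the main test) the value was -0.0056 with RLE factors, -0.00047 with filterByExpr, -0.065 with legacy=FALSE, -0.017 without the block and -0.11 without both mice of the shallowest libraries (added after the data were seen), and -0.34 to 0.29 without a mouse. For Dio2 it was 0.011 with no filter, 0.063 without the block and 0.12 with library totals, and -0.31 to 0.20 without a mouse. For Kcnk3 it was 0.016 with library totals and -0.25 to 0.043 without a mouse. For Gatm in SAT it was 0.026 with no filter, 0.12 without both mice and -0.13 to 0.053 without a mouse, and for its row 0.021 with no filter, 0.00089 with limma voom and -0.13 to 0.067 without a mouse. The difference of the Ucp1 responses (0.65 in the main test) was -0.27 without both mice and -0.13 to 1.01 without a mouse. That of Dio2 (0.42 in the main test) was -0.15 to 0.84 without a mouse. Dio2 between tissues of obese mice (0.40 in the main test) was -0.17 to 0.82 without a mouse. None of these values was called.

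With the replicate number as a block, 4 genes were called in SAT and 5 in VAT, Ckb (adjusted p = 0.0322) and Kcnk3 (0.0411) being added. Across diets the number pairs no animals: same-numbered lean and obese libraries had correlations of -0.0928 to 0.172, and 7 of 16 libraries correlated best with their own number. Library totals without a normalization factor gave a median log2 fold change of all genes of -0.20 in SAT (0 in the main test), 0.15 and 0.38 between tissues of lean and obese mice (0.02 in both) and 0.23 for the difference of the responses (0.00163). In VAT the depth of mouse 1 of each diet limits low genes such as Ucp1.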
